A study of Camellia sinensis with 9 samples.

Results

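Root was compared with leaf in the tea plant, Camellia sinensis, the shrub that tea is picked from. The comparison uses 6 of the 9 RNA libraries of the series: root 13, root 23 and root 33 against leaf 1, leaf 23 and leaf 41, each named by its tissue and the number in its column. No leaf title holds the number of the column leaf 23, which is taken by elimination as the library titled leaf 2. All plants were untreated, and the labels give no age, cultivar, genotype or plant of origin, so p-values measure only how far these libraries spread, and that spread may be technical. The remaining 3 libraries, from flower, entered through the spread in the fit and through the choice of loci tested. Their levels are given where they place a locus. By its title, the series deals with microRNAs and what they target across organs.

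Root and leaf divide the work of a tea plant. Leaves hold the chloroplasts, fix carbon and store catechins and caffeine. Roots take up water, ammonium and other minerals, and are known as the main place where theanine, the amino acid that gives tea its savoury taste, is made before it moves to the shoot in the xylem. The deposited table lists transcripts by assembled identifier, and none of its identifiers (0 matches) occurs in the RefSeq gene table of the species, so no locus below has a gene name or a known role, and lists of photosynthesis, theanine or root-hair genes could not be formed. For the same reason the tissue labels could not be checked against marker genes, and no sequence is printed. Start and end positions are those of the table, which names no scaffold.

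The values are FPKM, fragment counts per unit of transcript length and of library depth, summed over the transcripts of a locus (61592 loci). At a length of 1000 nt, 1 FPKM stood for 14.0 to 17.8 fragments in root and more than in any root library, up to 26.0, in leaf, as read from the steps of low values in single-transcript loci without strand. A count of 0 there allows up to 0.168 to 0.215 FPKM in root and 0.116 to 0.130 in leaf (3 fragments, counting error only). Between 27737 and 28636 loci per root library, and between 29235 and 30270 per leaf library, reached an FPKM of 1.

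Leaf 41 stood apart from the other leaf libraries. Across the 36342 loci tested, Pearson's r of log2(FPKM + 1) was 0.97 between leaf 1 and leaf 23, and 0.82 between leaf 41 and either of them. Root libraries correlated with each other at 0.92 to 0.97. With root, leaf 41 correlated at 0.62 to 0.67 and the other leaf libraries at 0.51 to 0.54. Loci are not independent, so these correlations are descriptions. The median standard deviation of a locus on the log2 scale was 0.39 over the 3 leaf libraries, 0.17 between leaf 1 and leaf 23, 0.28 over the 3 root libraries and 0.18 between root 23 and root 33.

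At some loci the libraries also fell into the same 2 sets in every tissue. Calling a locus on in a library at an FPKM of at least 1 and off under 0.2, 28482 loci were either on or off in each of the 9 libraries, and 299 of them were on in some and off in other libraries of root, of flower and of leaf alike. Such loci could show 216 patterns, of which 104 were seen. A single one, on in root 13, flower 1, flower 45, leaf 1 and leaf 23 and off in the rest, held 113 loci. Its mirror image, on in root 23, root 33, flower 2 and leaf 41, held 20, and no other pattern held more than 5. The intergenic locus MSTRG.38562 (positions 14178 to 15017, plus strand) is an example of the first: it stood at 10.9 FPKM in root 13, 26.7 in flower 1, 13.5 in flower 45, 10.98 in leaf 1 and 15.7 in leaf 23, and was listed at 0 in the other 4 libraries. MSTRG.17361 (intergenic, positions 553143 to 556636, plus strand) shows the mirror image, with 5.85 FPKM in root 23, 5.95 in root 33, 6.46 in flower 2 and 6.82 in leaf 41, and 0 in the other 5. Together these 133 loci were 44.5% of the 299, and the rest followed other patterns. Of the 133, 98 were intergenic and 27 annotated. This split was noticed in the data, the labels name no batch or plant that matches it, and its source was not tested.

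**Figure D1:**
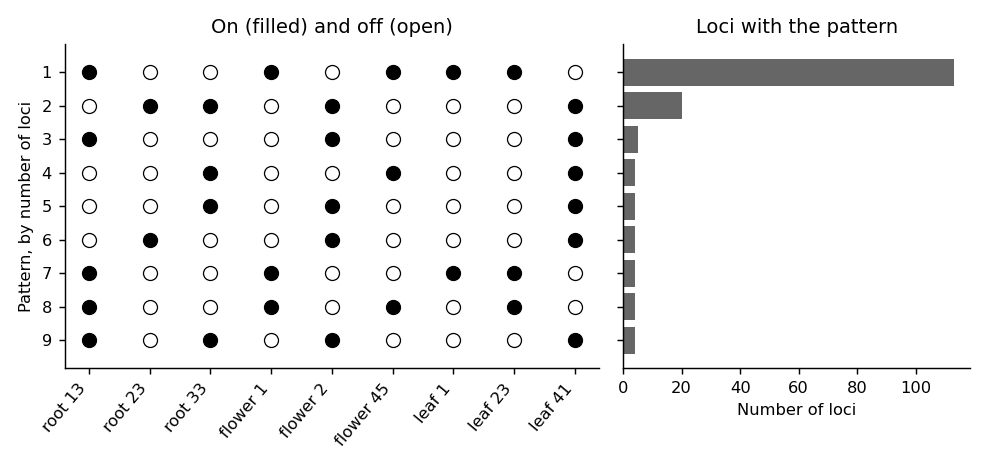
On and off patterns over the 9 libraries (left, filled circles on at an FPKM of at least 1, open circles off under 0.2) and the number of loci with each (right), for the 9 most frequent patterns among 299 loci that are mixed within every tissue. The first pattern holds 113 loci and its mirror image 20, where the next holds 5.

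Root and leaf differed at 35.3% of the loci tested. Calls needed a limma adjusted p under 0.05 and a difference of 1 or more in log2(FPKM + 1), a scale that shrinks the change of low loci. By that rule 12828 of 36342 loci were called, 7207 higher in root (19.8%) and 5621 lower (15.5%). The median difference of called loci was 1.96 among those higher in root and -1.97 among those lower. At least 8-fold differences on that scale were found at 1661 loci higher in root (4.57%) and 1302 lower (3.58%), and 380 and 259 loci exceeded a difference of 5. The values of root and leaf did not overlap at 54.1% of tested loci. Which side held more loci rested on the scaling: after all libraries were set to the same summed FPKM, 5577 were higher and 7930 lower in root, and the median over all loci went from 0 to -0.28.

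**Figure D2:**
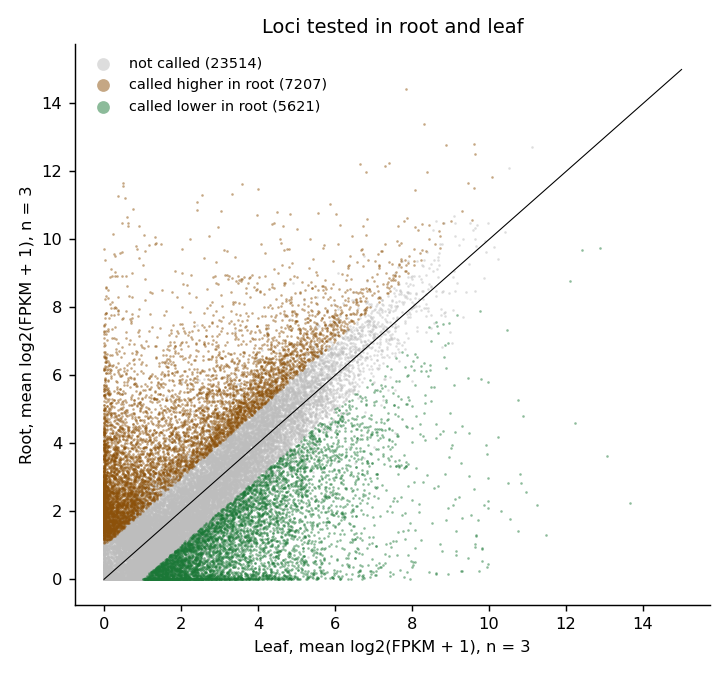
Mean log2(FPKM + 1) of the 36342 tested loci in root (vertical, n = 3) and leaf (horizontal, n = 3), with loci called higher in root in brown, lower in root in green and uncalled loci in grey. The line marks equal levels. Loci with a high level in one tissue and almost none in the other line both axes.

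Both loci that exceeded leaf most in root stayed under 1 FPKM in every leaf library. MSTRG.18954 (intergenic, 5 transcripts, positions 38672 to 83105, plus strand) was measured at 3217 FPKM in root 13, 3191 in root 23 and 3251 in root 33, against 0.400 in leaf 1, 0.290 in leaf 23 and 0.546 in leaf 41. Its root values had an SD of 30.1 FPKM (n = 3) and its flower values lay between 0.958 and 3.13 FPKM, above leaf and far below root. MSTRG.12400 (reference transcript CSA011023.1, positions 348851 to 411143, plus strand) was measured at 2730, 4399 and 2282 FPKM in root 13, 23 and 33, and at 0.226, 0.327 and 0.755 in leaf 1, 23 and 41. The root values spread more than those of MSTRG.18954, and no leaf library reached 1 FPKM. The differences of both loci were 11.16 ± 0.29 and 11.05 ± 0.28 (SE, log2 scale).

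Both loci that exceeded root most in leaf were still on in root, at low levels. MSTRG.16967 (CSA004763.1, positions 247513 to 250275, plus strand) was measured at 12292 FPKM in leaf 1, 19322 in leaf 23 and 9067 in leaf 41, and at 3.84, 3.78 and 3.69 in root 13, 23 and 33. Flower lay between, at 1072, 414 and 1030 FPKM in flower 1, 2 and 45. MSTRG.15151 (CSA004909.1, minus strand, positions 153830 to 157376) lay at 4340, 5523 and 973 FPKM in leaf 1, 23 and 41, and at 1.16, 1.99 and 1.32 in the root libraries. Leaf 41 was the lowest leaf library at both loci and still far above every root library. Without leaf 41 the difference of MSTRG.15151 went from -10.18 ± 0.57 to -10.96 ± 0.25, and that of MSTRG.16967 from -11.40 ± 0.43 to -11.66 ± 0.43 (SE).

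**Figure D3:**
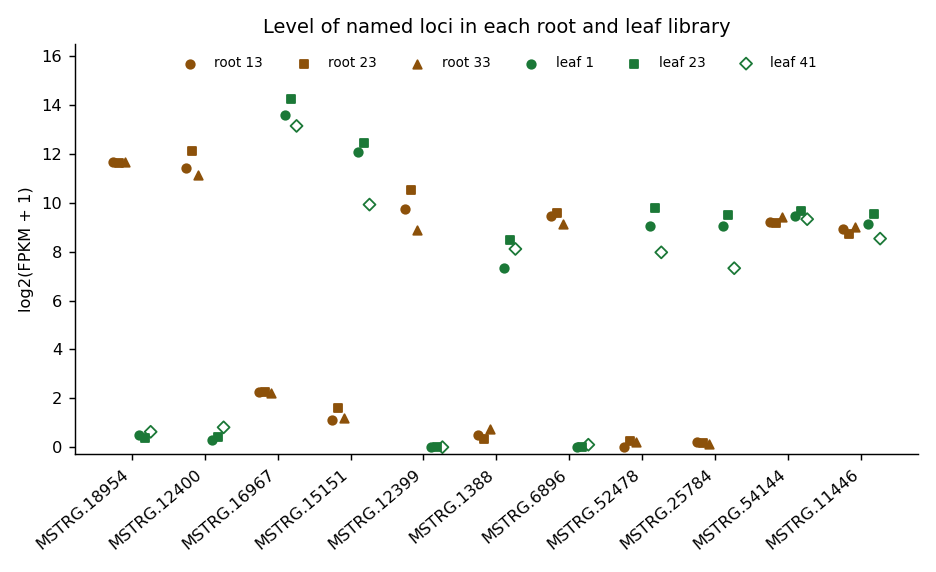
Level of 11 named loci in each root (brown) and leaf (green) library, as log2(FPKM + 1). Leaf 41 is drawn as open diamonds. It lies below leaf 1 and leaf 23 at MSTRG.15151, MSTRG.52478 and MSTRG.25784. The 2 loci on the right, MSTRG.54144 and MSTRG.11446, are steady between the tissues with all libraries fitted. At MSTRG.11446 leaf 1 and leaf 23 lie above every root library and leaf 41 below.

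A large part of the RNA of each organ came from loci that distinguish it. Loci higher in root held 59.6% ± 2.50 of summed FPKM in root and 12.6% ± 3.31 in leaf (SD, n = 3 each). Loci lower in root held 2.65% ± 0.404 in root and 40.4% ± 5.69 in leaf. These shares describe the calls and do not test them. Leaf 41 departed here as well: loci higher in root held 16.4% of its summed FPKM, against 10.5% in leaf 1 and 10.8% in leaf 23, and loci lower in root held 33.9%, against 42.4% and 44.8%. The 1000 highest loci of a library held 53.8% to 57.9% of summed FPKM in root and 44.7% to 55.8% in leaf.

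Annotated loci, which hold a reference transcript, were called a little more often than intergenic ones. A locus near 0 in both tissues cannot reach a difference of 1, so the levels of called loci partly follow from the rule. Of 19796 annotated loci tested, 20.5% were higher and 17.3% lower in root. Of 15141 intergenic loci, 19.0% were higher and 13.1% lower, and of 785 antisense loci, which lie opposite an annotated gene, 18.2% were higher and 14.5% lower. Annotated loci higher in root had a median of 28.2 FPKM in root and 4.90 in leaf, and those lower in root had 1.99 in root and 17.0 in leaf. The intergenic loci were lower by far on both sides, with medians of 7.73 and 0.504 FPKM where root was higher, and 0.344 and 5.39 where it was lower. Loci higher in root were shorter than those lower in root, with median spans of 2606 and 3957 nt beside 3322 nt over all tested loci.

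What root and leaf shared was read from levels and from intervals. Of all 61592 loci, 17812 were on in each of the 6 libraries (28.9%) and 9895 were off in each (16.1%). Among the 17812 shared loci, 3528 were steady (19.8%), meaning that the 95% interval of the difference in the limma fit lay between -1 and 1. With limits of -0.5 and 0.5, 24 were. Steady loci had a median span of 7092 nt and a median of 2 transcripts, where tested loci had 1, and 4.05% had no strand against 17.0% of tested loci. They held 7.02% ± 0.512 of summed FPKM in root and 9.36% ± 0.929 in leaf (SD, n = 3 each).

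The steady loci with the highest levels were both annotated. MSTRG.54144 (CSA002602.1, positions 6616 to 7134, minus strand) lay at 589, 579 and 680 FPKM in root 13, 23 and 33 and at 698, 805 and 643 in leaf 1, 23 and 41. The tissues overlapped, and the difference was -0.21 with a 95% interval of -0.88 to 0.45. MSTRG.11446 (CSA017238.1, positions 648256 to 651819, plus strand) was measured at 488, 417 and 518 FPKM in root and 556, 740 and 370 in leaf. Its difference was -0.18 (95% interval -0.88 to 0.52). Here the overlap rested on leaf 41, since leaf 1 and leaf 23 lay above every root library. Without leaf 41 the difference of MSTRG.11446 was -0.44 ± 0.25 (SE), so its place among steady loci depends on that library. Its flower values, 126, 115 and 142 FPKM in flower 1, 2 and 45, lay below all 6 others, so a level shared by root and leaf was not always one shared with flower.

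High abundance was shared less than presence. Of the 100 loci with the highest mean in root and the 100 highest in leaf, 26 were in both lists, and 0 of those 26 were steady. Of the 1000 highest, 417 were in both and 38 of them were steady. Among the 1000 highest of root, 674 were called higher in root, and among the 1000 highest of leaf, 427 were called higher in leaf, beside 19.8% and 15.5% of all tested loci. A list picked by a high mean in 1 tissue favours calls in that direction, so these counts are a description.

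Some loci were on in 1 organ and off in the other. Of all loci, 1129 were on in every root library and off in every leaf library, and 822 were on in leaf and off in root. All of them were tested, and 1117 and 804 were called in the matching direction, where the calls in each direction came to 19.8% and 15.5% of all loci. This count follows from the choice of loci. Most stood at low levels: the median of the mean level was 4.72 FPKM for the root loci and 5.01 for the leaf loci, 298 and 251 reached a mean of 10 FPKM, and 37 and 17 reached 100. Listed at exactly 0 in all libraries of the other tissue were 536 and 375. Since 1 FPKM stands for fewer fragments in root, off is less well determined there than in leaf.

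These loci were mainly short and outside annotated genes. Intergenic loci made up 64.7% of those on in root and off in leaf and 60.5% of those on in leaf and off in root, against 31.1% of all loci on in root and 30.1% of all on in leaf. The median span was 1202 and 1686 nt, against 4585 and 5054 nt over all loci on in root and in leaf. A single transcript was assembled at 78.7% and 66.5%, against 41.7% and 38.2%. Low levels and short spans go together with a value under 0.2 FPKM at few fragments, and their part in these shares was not tested.

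Flower, which the choice did not use, treated the lists differently. Of the 1129 loci on in root and off in leaf, 624 were off in all flower libraries (55.3%) and 95 were on in all (8.41%). Of the 822 on in leaf and off in root, 185 were off in flower (22.5%) and 181 were on (22.02%). Over all loci on in root, 5.34% were off in flower and 70.8% on, and over all on in leaf 1.73% and 73.4%. These shares are descriptions, and no test of the difference between the lists was made.

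The highest loci of the root list were MSTRG.12399 and MSTRG.6896. MSTRG.12399 (antisense, positions 348763 to 409504, minus strand) lay at 857, 1484 and 472 FPKM in root 13, 23 and 33 and was listed at 0 in leaf 1, 23 and 41. It runs opposite MSTRG.12400, the annotated locus with one of the largest root excesses, and both had their highest value in root 23 and their lowest in root 33. MSTRG.6896 (intergenic, positions 338305 to 340849, minus strand) lay at 705, 758 and 556 FPKM in root and at 0, 0 and 0.0718 in leaf. In flower 1, 2 and 45 it stood at 0.905, 1.10 and 0.333 FPKM. Neither locus overlapped between root and the other organs, and the limma adjusted p was 1.33e-06 for MSTRG.12399 and 1.50e-07 for MSTRG.6896.

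The highest loci of the leaf list were annotated. MSTRG.52478 (CSA029723.1, positions 31894 to 34494, minus strand) lay at 534, 872 and 250 FPKM in leaf 1, 23 and 41 and at 0, 0.190 and 0.161 in root 13, 23 and 33. MSTRG.25784 (CSA034492.1, positions 116240 to 120401, minus strand) lay at 524, 721 and 159 FPKM in leaf and at 0.153, 0.117 and 0.0987 in root. Leaf 41 was again the lowest leaf library at both. In flower the first stood at 0.976 to 5.91 FPKM and the second at 10.4 to 28.4, and the limma adjusted p was 6.35e-06 and 8.41e-06.

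Antisense loci were set beside the gene opposite them. Of 1194 antisense loci, 653 were paired with an overlapping annotated locus on the other strand, both tested. Both members were called at 145 pairs, higher in root at 80, lower at 54 and in opposite directions at 11. The antisense member alone was called at 71 pairs and the annotated member alone at 129, and neither was called at 308. Over all tested loci, 19.8% were called higher and 15.5% lower in root. The use of strand in the authors' counting is not given in the sources used here, so reads of the 2 strands may not have been told apart. In leaf, the antisense locus with the largest excess was MSTRG.1388 (positions 1432497 to 1433132, minus strand), at 161, 355 and 276 FPKM in leaf 1, 23 and 41 and 0.403, 0.257 and 0.687 in root 13, 23 and 33. The gene opposite, MSTRG.1387 (CSA008917.1, positions 1432177 to 1432962, plus strand), stood at 5425, 10646 and 11113 FPKM in leaf and 23.7, 3.90 and 14.3 in root. In both members leaf 1 was the lowest leaf library.

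How much of the contrast held without leaf 41 was asked next. Without it 15028 loci were called (41.4%), 7960 higher and 7068 lower in root. Of the 7207 loci higher in root, 6790 were called again (94.2%), and of the 5621 lower in root, 5276 (93.9%). None (0) of the others turned sign. The 417 and 345 lost calls had median differences of 1.21 and 1.18 in size with leaf 41 in, close to the threshold of 1. Another 1170 loci were called higher and 1792 lower only without leaf 41. Per locus, the difference without leaf 41 was a median of 103% of the one with it among loci higher in root and 109% among those lower, and it grew at 63.2% and 71.9% of them. At least 8-fold differences numbered 1884 and 1788 without it, of which 1605 and 1239 were also found with it. By comparison, leaving out leaf 1 kept 81.9% and 77.3% of the calls and leaving out leaf 23 kept 84.9% and 79.1%. Under every choice of 1 root or leaf library left out, 5458 loci stayed higher in root (75.7%) and 3921 lower (69.8%).

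Each library was then set against calls made without it, so that it served as a replicate the calls had not used. At 100% a left-out library shows the whole difference seen in the others, and at 0% it sits at the level of the other tissue. Leaf 41 showed a median of 81.9% of the difference at loci called higher in root and 58.9% at loci called lower. For leaf 1 the medians were 104% and 107%, for leaf 23 100.4% and 109%, and over the root libraries they ran from 91.0% to 107%. Of the 7068 loci called lower in root without leaf 41, 934 were at or beyond the root level in leaf 41, and 4058 (57.4%) kept a difference of at least 1. Leaf 1, left out in turn, kept one at 93.5%. The same held at large differences: at the 1788 loci lower by at least 8-fold the median in leaf 41 was 64.1%, against 105% in leaf 1 at its 1172 loci. The calls made without leaf 41 rest on the most alike pair of libraries and include more loci, so the lists are not the same. For leaf 1 and leaf 23 the 100% mark is a mean that contains leaf 41. A low leaf 41 raises their percentages, so the gap between them and leaf 41 is not a comparison on equal terms.

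**Figure D4:**
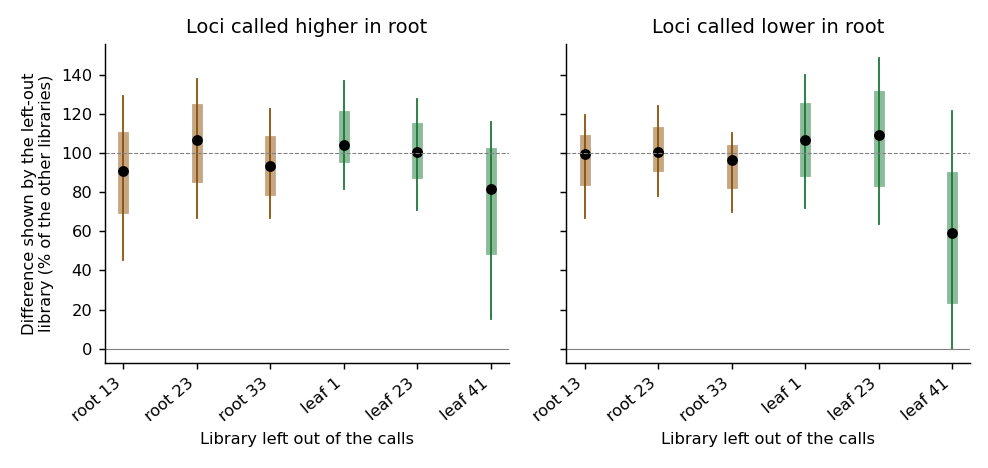
Difference shown by each root (brown) or leaf (green) library at loci called without it, in percent of the difference between the other libraries of its tissue and the other tissue. Points are medians, thick bars span the middle 50% of loci and thin lines the 10th to 90th. Leaf 41 has the lowest medians, 81.9% and 58.9%.

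The on and off lists depended on leaf 41 far more than the calls did. Without it, 2038 loci were on in root and off in leaf, in place of 1129, and 2527 were on in leaf and off in root, in place of 822. Leaving out any other root or leaf library gave 1225 to 1441 and 933 to 1036. Of the 2527 loci on in leaf 1 and leaf 23 and off in root, leaf 41 reached an FPKM of 1 at 822 (32.5%) and stayed under 0.2 at 1143. Leaf 1 and leaf 23, left out in turn, reached 1 at 88.1% and 83.5%, of loci that leaf 41 had on as well. Of the 2038 loci on in root and off in leaf 1 and leaf 23, leaf 41 was off at 1129 (55.4%) and on at 409. At the depth of leaf 41, 0.2 FPKM is above what 3 fragments are worth at 1000 nt (0.129 FPKM).

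**Figure D5:**
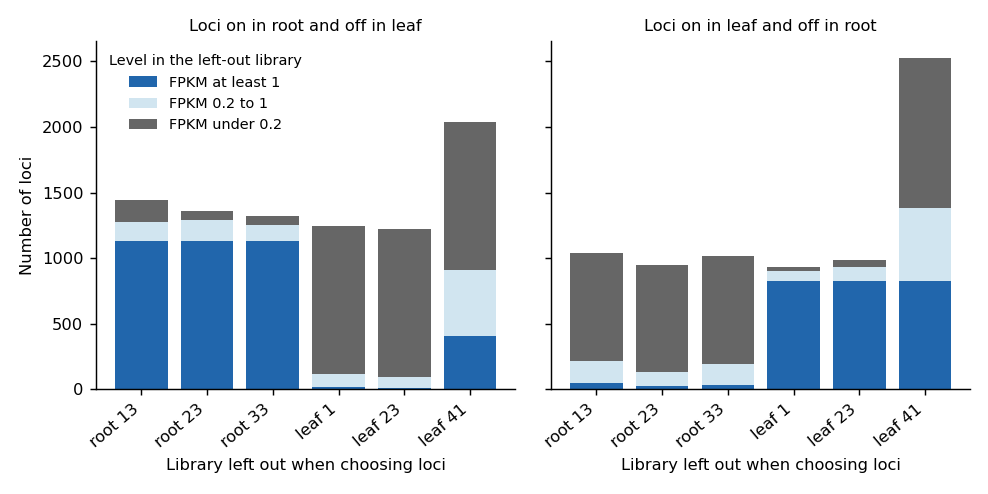
Number of loci on in root and off in leaf (left) or on in leaf and off in root (right) when the named library is left out of the choice, split by the level of that library at those loci. Leaf 41 differs from the other leaf libraries in both panels: it is under 0.2 FPKM at 1143 of the 2527 loci that leaf 1 and leaf 23 have on and root has off.

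Where leaf 41 departed from the other leaf libraries, root usually lay on the same side. At 1519 loci leaf 41 was lower than the mean of leaf 1 and leaf 23 by more than 2 on the log2 scale, and at 1337 of them (88.0%) root was lower too, by at least 1. At 1203 loci leaf 41 was higher by more than 2, and root was higher at 810 (67.3%), within 1 at 283 and lower at 110. Over all tested loci, root was at least 1 below leaf 1 and leaf 23 at 23.03% and above at 25.4%. All these differences are against the same mean of leaf 1 and leaf 23, so part of the shared side follows from that mean.

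MSTRG.21402 (CSA016009.1 and CSA016010.1, positions 437314 to 469193, minus strand) was the clearest case on the low side. It stood at 3135 FPKM in leaf 1 and 3663 in leaf 23, at 12.5 in leaf 41, and at 14.2, 1.59 and 1.37 in root 13, 23 and 33. Leaf 41 was thus within the range of root, while flower 1, 2 and 45 stood at 3723, 1476 and 2462 FPKM. Its difference of -6.89 ± 1.89 became -9.55 ± 0.78 without leaf 41 (SE). With leaf 41 kept and leaf 1 or leaf 23 left out it was -5.61 or -5.50, with a limma adjusted p of 0.0677 or 0.0655, and without root 23 or root 33 it missed the threshold too (0.0630 and 0.0608). MSTRG.16653 (intergenic, positions 12601 to 13464, no strand) stood at 427 and 114 FPKM in leaf 1 and 23 and at 0.0518 in leaf 41. It was not called with all libraries (-3.75 ± 2.31, SE, limma adjusted p 0.229) and was called without leaf 41 (-6.32 ± 1.84, 0.0231). In root 13, 23 and 33 it stood at 10.998, 0.172 and 0.508 FPKM and in flower 1, 2 and 45 at 82.2, 0.144 and 58.9, which is the split of the libraries described above, although root 33 is over 0.2. MSTRG.52105 (CSA026912.1, positions 30223 to 31164, plus strand) was measured at 160 and 203 FPKM in leaf 1 and 23, 0.798 in leaf 41 and at most 1.04 in root. Its difference of -4.84 ± 1.57 (SE) was past the threshold with all libraries and without leaf 41 or flower 2. The difference missed it when any other library was left out, where the limma adjusted p ran from 0.0517 to 0.126. Fitted on the root and leaf libraries alone, MSTRG.21402 and MSTRG.52105 were not called (limma adjusted p 0.0574 and 0.0835).

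On the high side leaf 41 was at times far above root as well. MSTRG.1800 (intergenic, positions 1650464 to 1651261, no strand) stood at 779 FPKM in leaf 41, at 0.206 and 0 in leaf 1 and 23, and at 8.83, 0.860 and 15.5 in root 13, 23 and 33. MSTRG.45306 (CSA012503.1, positions 64620 to 69522, plus strand) was measured at 866 FPKM in leaf 41, at 1.02 and 1.59 in the other leaf libraries, and at 12.002, 1.42 and 9.98 in root. Neither was called with or without leaf 41, and the sign of each difference turned when it was left out. At MSTRG.43752 (CSA022992.1, positions 46981 to 50829, plus strand) leaf 41 lay between: root stood at 1188, 1319 and 1450 FPKM, leaf 1 and 23 at 0.292 and 0.385, and leaf 41 at 256. Its difference of 7.41 ± 1.71 grew to 9.94 ± 0.39 without leaf 41 (SE). MSTRG.40169 (CSA025406.1, positions 115369 to 117857, plus strand) was alike, with 2452, 3128 and 4208 FPKM in root, 2.15 and 1.27 in leaf 1 and 23 and 236 in leaf 41. At MSTRG.43752 and MSTRG.40169 the reference transcript alone did not reach 1 FPKM in 3 libraries. The levels given for them are thus locus sums that include other assembled transcripts, not levels of the reference transcript.

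A smaller number of differences shrank without leaf 41. MSTRG.29314 (CSA010886.1, positions 1331 to 10927, plus strand) was measured at 219, 353 and 291 FPKM in root 13, 23 and 33, at 75.5 and 62.0 in leaf 1 and 23 and at 3.94 in leaf 41, and its difference went from 3.30 ± 0.96 to 2.03 ± 0.53 (SE). MSTRG.37204 (CSA023231.1, positions 156290 to 157633, minus strand) lay at 79.3, 156 and 157 FPKM in root and at 31.1, 4.01 and 0.360 in leaf 1, 23 and 41. MSTRG.51874 (CSA030476.1, positions 87485 to 91007, minus strand) lay at 8255 FPKM in leaf 41, 77.9 in leaf 1 and 257 in leaf 23, against 8.27, 0.803 and 7.35 in root, and its difference went from -6.73 ± 1.48 to -4.78 ± 0.86 (SE). MSTRG.40775 (CSA031421.1, positions 18520 to 21486, plus strand) was measured at 1355 FPKM in leaf 41, 6.99 and 72.7 in leaf 1 and 23, and at most 2.69 in root. Each of these 4 loci was still called in the same direction without leaf 41. MSTRG.29314 missed the threshold without root 23 or root 33 (limma adjusted p 0.0742 and 0.0625), and MSTRG.40775 without leaf 23, root 23 or root 33 (0.0536, 0.0824 and 0.0506). In reference transcripts alone, with all libraries, the difference of MSTRG.29314 was 0.82 (limma adjusted p 0.069) and that of MSTRG.40775 -1.75 (0.197). Neither was called there, while MSTRG.37204 and MSTRG.51874 were. Fitted on the root and leaf libraries alone, MSTRG.29314 and MSTRG.40775 were not called (limma adjusted p 0.0525 and 0.0655). MSTRG.37204 and MSTRG.51874 were called in that fit.

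The contrast was also read within each of the 2 library sets. Root 13 against leaf 1 and leaf 23 showed a difference of at least 1 in the called direction at 6629 of the 7207 loci higher in root and at 5283 of the 5621 lower. Root 23 and root 33 against leaf 41 did so at 6166 and 4375. Both sets did so at 5630 (78.1%) and 4060 (72.2%), and the sets differed in sign at 4 and 5 loci. The median difference was 2.03 in the first set and 1.80 in the second among loci higher in root, and -2.15 and -1.58 among those lower. The same libraries made the calls, so these counts describe how evenly a call is shared. With the set as a term in the limma fit, 7182 loci were higher and 5596 lower in root, and 12080 of the 12828 calls remained (94.2%).

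Transcripts within a locus also changed their shares between the organs, at few loci. Among 12028 loci of 2 or more transcripts that were on in all 6 libraries, 663 of 40493 transcripts tested (1.64%) changed their share of the locus FPKM by at least 25 percentage points with a limma adjusted p under 0.05. They lay in 470 loci (3.91%). At 269 of these the locus sum was not called, and at 76 of those it was steady. This count moved with most libraries: 1654 transcripts were called without leaf 41, 163 without leaf 1, 211 without leaf 23, 230 without root 23 and 251 without root 33. A different transcript led in all root and all leaf libraries at 370 loci, of which 162 held a called transcript. The leaders were splice variants in both organs at 118 loci, a reference transcript in root and a splice variant in leaf at 71, and the reverse at 48. Without leaf 41, 829 loci had a different leader. At 390 of the 459 added ones, leaf 41 was led by the transcript that led in root.

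The largest share differences were nearly complete. At MSTRG.20932 (intergenic, plus strand) the transcript MSTRG.20932.1 (positions 65808 to 96302) stood at 5.47, 2.13 and 4.34 FPKM in root 13, 23 and 33 and held almost all of the locus there, while MSTRG.20932.2 (positions 65938 to 95905) stood at 10.1, 13.4 and 4.57 FPKM in leaf 1, 23 and 41 and held almost all of it in leaf. The locus sums of root and leaf overlapped, with a difference of -1.01 ± 0.41 (SE) and a limma adjusted p of 0.0794. At MSTRG.37872 (minus strand) the reference transcript CSA001221.1 (positions 133170 to 146870) held all of the locus in root, at 2.64, 2.24 and 1.74 FPKM. In leaf the splice variant MSTRG.37872.1 (positions 130384 to 146835) led with 23.9, 12.5 and 26.4 FPKM in leaf 1, 23 and 41, or 92.1% ± 6.09 of the locus (SD, n = 3). The locus sum of MSTRG.37872 was itself called lower in root (-2.83 ± 0.56, SE, limma adjusted p 0.00344). Its root shares thus rest on levels not far above 1 FPKM. Leaf 41 sided with the other leaf libraries at both loci. The shares are the authors' isoform estimates, which divide fragments between overlapping transcripts.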

How the data were processed

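TRIzol was used to extract total RNA and only ribosomal RNA was removed, per the labels' protocols, so RNA without poly(A) tails can contribute. Per the submitters' processing notes, HISAT2, StringTie and Cuffnorm were used; the sources used here give no versions, settings, strand use or build. The values are FPKM, deposited by the authors for 109879 transcripts in 9 libraries. No column of values was left unused (0), and 0% of tested loci had identical values above 0 in a pair of root or leaf libraries.

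FPKM were summed by locus. Testing was restricted to loci reaching 1 FPKM in 3 or more of the 9 libraries and used limma 3.58.1 under R 4.3.3, taking log2(FPKM + 1) and a variance trend, 1 mean per tissue and Benjamini-Hochberg adjustment over all loci. Transcript shares, in percent of the locus FPKM in the 6 root and leaf libraries, were tested with limma over transcripts reaching 1% in at least 1 library. The code was tested on simulated data. An antisense locus was paired with the annotated locus of largest overlap within 3 locus numbers. Steps of low values were fitted in loci of 600 to 3000 nt. Named loci follow a rule of at most 2 per direction and result: largest difference (1 for antisense), highest on and off loci, highest steady loci, largest departure of leaf 41, largest change without leaf 41, largest share difference and longest run of neighbours. MSTRG.1387, the gene opposite a named antisense locus, and the example loci of the library split were chosen after their values were seen. The comparison, lists and thresholds were chosen with earlier results of these data known.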

Additional observations from a re-analysis of the deposited data

How the results depend on the processing

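With a pseudocount of 5, calls fell from 12828 to 7429 (4413 higher, 3016 lower in root), since it shrinks differences between low values. Reference transcripts alone left 12900 loci to test and gave 4765 calls (2798 and 1967), and a filter of FPKM 5 gave 3698 lower calls among 20545 loci. The other alternatives kept the total within 1.5 times, and equal sums alone turned the balance. Leaving out 1 library gave 10425 to 15028 calls, 5994 to 7960 higher and 4431 to 7068 lower. Steady loci numbered 24 with limits of 0.5, 2254 with a pseudocount of 0.1, and 2004 to 3098 with a library left out, the lowest without root 33. Loci on in root and off in leaf numbered 536 with off at exactly 0, 1773 with off under 0.5, 336 with on at 5 FPKM and 308 in reference transcripts alone. The matching counts for leaf were 375, 1475, 196 and 234. Leaving out a library gave 1225 to 2038 and 933 to 2527. Without both root 13 and leaf 41, a setting added after seeing the data as was the set term, they were 2666 and 3378. Called transcript shares numbered 198 at 50 percentage points, 384 at a locus FPKM of 5, and 163 to 1654 with a library left out. Of 572 values for 28 named loci, 533 kept direction and call, 28 lost the call, 3 gained it and 8 turned sign. Those 8 belong to uncalled loci: MSTRG.1800, at -0.55 with all libraries, went to 2.60 with array weights, 0.83 with a pseudocount of 0.1, 2.34 without root 13 and leaf 41, 0.38 without root 23 and 2.61 without leaf 41, and from -2.19 to 2.61 over all left-out libraries. MSTRG.45306, at -1.24, went to 1.57 with array weights, 1.17 without root 13 and leaf 41 and 1.62 without leaf 41, and from -2.75 to 1.62 over all left-out libraries. Lost calls lay at MSTRG.21402, MSTRG.29314, MSTRG.52105, MSTRG.40775, MSTRG.1792, MSTRG.9920 and MSTRG.9921. No paired analysis was possible because root and leaf share no replicate number in the titles. At 3 fragments, 0.116 to 0.215 FPKM at 1000 nt, depth limits what off means, more so in loci under 400 nt.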

Other observations

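Loci on in 1 organ and off in the other at times lay side by side. Among those on in root and off in leaf, 148 of 1129 fell into 69 runs of consecutive locus numbers, and among those on in leaf and off in root 60 of 822 fell into 29. The longest root run held 5 loci, from MSTRG.1792 to MSTRG.1796, between positions 1029606 and 1133177 and on both strands, 4 of them annotated. MSTRG.1795 (CSA015657.1) stood at 41.3, 8.49 and 8.41 FPKM in root 13, 23 and 33 and was listed at 0 in every leaf and flower library. These are locus sums. At MSTRG.1792, MSTRG.1794 and MSTRG.1795 the reference transcripts alone did not reach 1 FPKM in 3 libraries. At these loci the levels are thus not levels of the annotated transcripts. MSTRG.1796 (CSA015658.1 and CSA015659.1) stood at 14.4, 14.6 and 9.63 FPKM in root and at most 0.121 in leaf. In flower it stood at 12.4 FPKM in flower 2 and at 0.264 and 0.275 in flower 1 and 45. The longest leaf runs held 3 loci each, MSTRG.9919 to MSTRG.9921 and MSTRG.46745 to MSTRG.46747, and only the first is described. It lay between positions 613306 and 618506. MSTRG.9919 (CSA031391.1) stood at 27.3, 24.4 and 12.997 FPKM in leaf 1, 23 and 41 and at most 0.0497 in root. Some other members of these runs, MSTRG.1792, MSTRG.9920 and MSTRG.9921, lay near the threshold of 1 FPKM. MSTRG.1793 and MSTRG.1794 lay well above it in every root library. MSTRG.1792 stood at 1.79 to 2.29 FPKM in root, MSTRG.9920 at 1.07 to 1.78 and MSTRG.9921 at 1.03 to 1.46 in leaf. No expected share of runs was set beside the counts. Neighbours on the same strand can be parts of 1 transcription unit, which was not tested.

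At 11 antisense pairs both members were called, in opposite directions. In root the antisense locus was lower and the gene opposite higher at 8 of them, and the reverse held at 3. These pairs are too few to show a lean to 1 side, and none was tested. At MSTRG.37798, an antisense locus higher in root by 5.09 on the log2 scale (limma adjusted p = 5.42e-05), the gene opposite, MSTRG.37800, fell by 1.98 (adjusted p = 0.000569). At MSTRG.53854 the antisense locus was higher in root by 1.42 (adjusted p = 0.00666), and MSTRG.53855 opposite it fell by 5.97 (adjusted p = 3.22e-05). Both pairs described belong to the 3 with the antisense locus higher in root, and they were chosen after their values were seen.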
